A study of Mus musculus with 18 samples.

Results

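Intermediate filament genes were followed in C2C12, a mouse myoblast line whose cells can fuse into myotubes when serum is reduced. The genes were 5 keratins (Krt7, Krt8, Krt14, Krt18 and Krt19) and 4 filament genes of mesenchymal, muscle or progenitor cells (Vim, Des, Nes and Synm). They were listed by symbol and matched by Ensembl identifier, which gave 9 of 35275 listed genes. The list was drawn up with earlier results of the same libraries known. Krt14 was chosen by its fall in differentiating control cells, which is therefore described without a test. Which other values entered the choice is not recorded, so the adjusted p-values below set the size of a difference against the replicate spread and are not independent support.

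Intermediate filaments are ropes of coiled-coil proteins that give cells mechanical strength. Keratins form them only as pairs of a type I protein (such as Krt14, Krt18 and Krt19) and a type II protein (such as Krt7 and Krt8), and they mark epithelia. Vimentin (Vim) builds the filaments of mesenchymal cells and myoblasts, and desmin (Des) those of muscle, where they link myofibrils at the Z-discs. Nestin (Nes) and synemin (Synm) are large proteins that join filaments of vimentin or desmin. Nestin is abundant in muscle progenitors and synemin connects desmin filaments to the membrane.

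The labels name control cells, described as wild type, and cells overexpressing the spliced or the genomic form of the long noncoding RNA MUNC, here called MUNC spliced and MUNC genomic. Per the labels the stock was PAX7 NEG. Each was sampled in growth medium (GM, with fetal bovine serum) and after 3 days with a low level of horse serum (DM3, labelled myotubes), with 3 biological replicates in each of 6 groups, 18 libraries in all. The level of MUNC itself was not analysed here, and whether a line is 1 clone or a pool is not given in the sources used here. Levels are in FPM, reads per gene scaled for library size and not for gene length, and depth was 38416702 to 68788327 reads per library. The cells' labelled identity was checked with muscle markers: Myf5, an early myogenic regulator, was at 20.0 to 125 FPM and Cdh15, the muscle cadherin, at 18.1 to 277 FPM in every library, while Myod1 had 0 reads in 3 libraries. Other muscle markers were low, with Mef2c at most 0.152 FPM and Myf6 at most 0.576 FPM in any library. In control GM, 5 of the 16 muscle markers read here reached 0.5 FPM in any library. Summed levels of 16 muscle markers were 673 and 699 FPM in MUNC spliced DM3 replicates 3 and 2 but 1735 FPM in replicate 1, and results that rest on that library are given with and without it.

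A stretch upstream of the RefSeq start site is shown for 4 genes on which the results turn. These are Krt8 and Krt18, a classical keratin pair lying 23.7 kb apart, Des, and Krt14. The sequences are RefSeq's, on GRCm38.p6, and read 5′ to 3′ on the gene's own strand. The Krt14 window lies inside the gene as GENCODE M21 places it (chr11:100203162-100207548), not next to that gene's annotated 5′ end. Bases that GENCODE M21 annotates as exon of the same gene were left out. Counted from the RefSeq start, the runs cover -250 to -141 for Krt8, -186 to -37 for Krt18 and -150 to -1 for Des and Krt14. Match counts in the printed runs are therefore from unlike windows. Capitals mark matches, on either strand, to CANNTG (E-box, the site class of myogenic bHLH factors), GGGCGG (Sp1), CCAAT (NF-Y) and TATAAA (the TFIID-bound core promoter box). The palindromic cores of the AP-1 and MEF2 sites, with free bases in their middle, were searched as well. Krt8 is given from chr15:102004483-102004592 (minus strand), Krt18 from chr15:102028030-102028179 (plus strand), Des from chr1:75360142-75360291 (plus strand) and Krt14 from chr11:100206031-100206180 (minus strand).
Krt8: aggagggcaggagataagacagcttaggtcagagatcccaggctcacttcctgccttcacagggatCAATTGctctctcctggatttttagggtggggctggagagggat
Krt18: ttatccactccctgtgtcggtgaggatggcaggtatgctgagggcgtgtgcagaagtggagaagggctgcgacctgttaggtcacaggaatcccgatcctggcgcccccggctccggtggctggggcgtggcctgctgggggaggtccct
Des: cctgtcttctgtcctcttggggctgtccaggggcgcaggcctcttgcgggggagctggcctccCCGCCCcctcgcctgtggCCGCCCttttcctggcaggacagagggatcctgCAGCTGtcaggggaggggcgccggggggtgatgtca
Krt14: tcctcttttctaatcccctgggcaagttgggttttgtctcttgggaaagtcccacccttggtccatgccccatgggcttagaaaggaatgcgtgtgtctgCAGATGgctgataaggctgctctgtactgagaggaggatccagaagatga
In the printed runs Krt8 and Krt14 each held 1 E-box, and Des held 1 E-box and 2 Sp1 matches. The Krt18 run held no match, which says only that these letters were not in that window. Over the whole 250 bases upstream, E-boxes were found for Krt8 (2), Des (2), Krt14 (1), Krt18 (1), Krt7 (1) and Synm (1), and no match to the MEF2 or AP-1 letters for any of the 8 genes with a promoter entry. Among all 32851 RefSeq promoters the same window held an E-box in 66.2%, an Sp1 match in 32.7%, CCAAT in 33.9%, TATAAA in 12.4%, the AP-1 letters in 6.75% and the MEF2 letters in 3.20%. In these RefSeq windows Vim was the only 1 of the 8 with TATAAA, and it also held 2 CCAAT matches. The windows of Krt14, Krt7 and Vim lie inside the genes as GENCODE places them. These matches are descriptions of sequence.

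In exonic reads per kilobase, the only scale on which levels are compared between genes, Vim was the highest of the 9 in every group. In control GM it averaged 1869 ± 413 FPM per kb (SD, n = 3), followed by Nes at 251 ± 28.1 FPM per kb, Krt14 at 26.9 ± 12.3 FPM per kb and Des at 6.45 ± 2.23 FPM per kb. Krt19 (0.920 ± 0.354 FPM per kb) came next, above Synm (0.247 ± 0.166 FPM per kb) and Krt8 (0.138 ± 0.0867 FPM per kb), whose ranges overlapped. Krt7 and Krt18 lay at the bottom, at 0.0117 ± 0.00609 FPM per kb and 0.00356 ± 0.00617 FPM per kb, again with overlapping ranges. In MUNC genomic DM3 the order was Vim (499 ± 57.5 FPM per kb), Nes (290 ± 27.9 FPM per kb) and Des (239 ± 26.5 FPM per kb), then Krt8 (5.84 ± 1.13 FPM per kb), with Krt14 down to 0.539 ± 0.303 FPM per kb. The ranges of Nes and Des overlapped there. How reads shared with near-identical family members or pseudogenes were counted is not given in the sources used here.

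**Figure D1:**
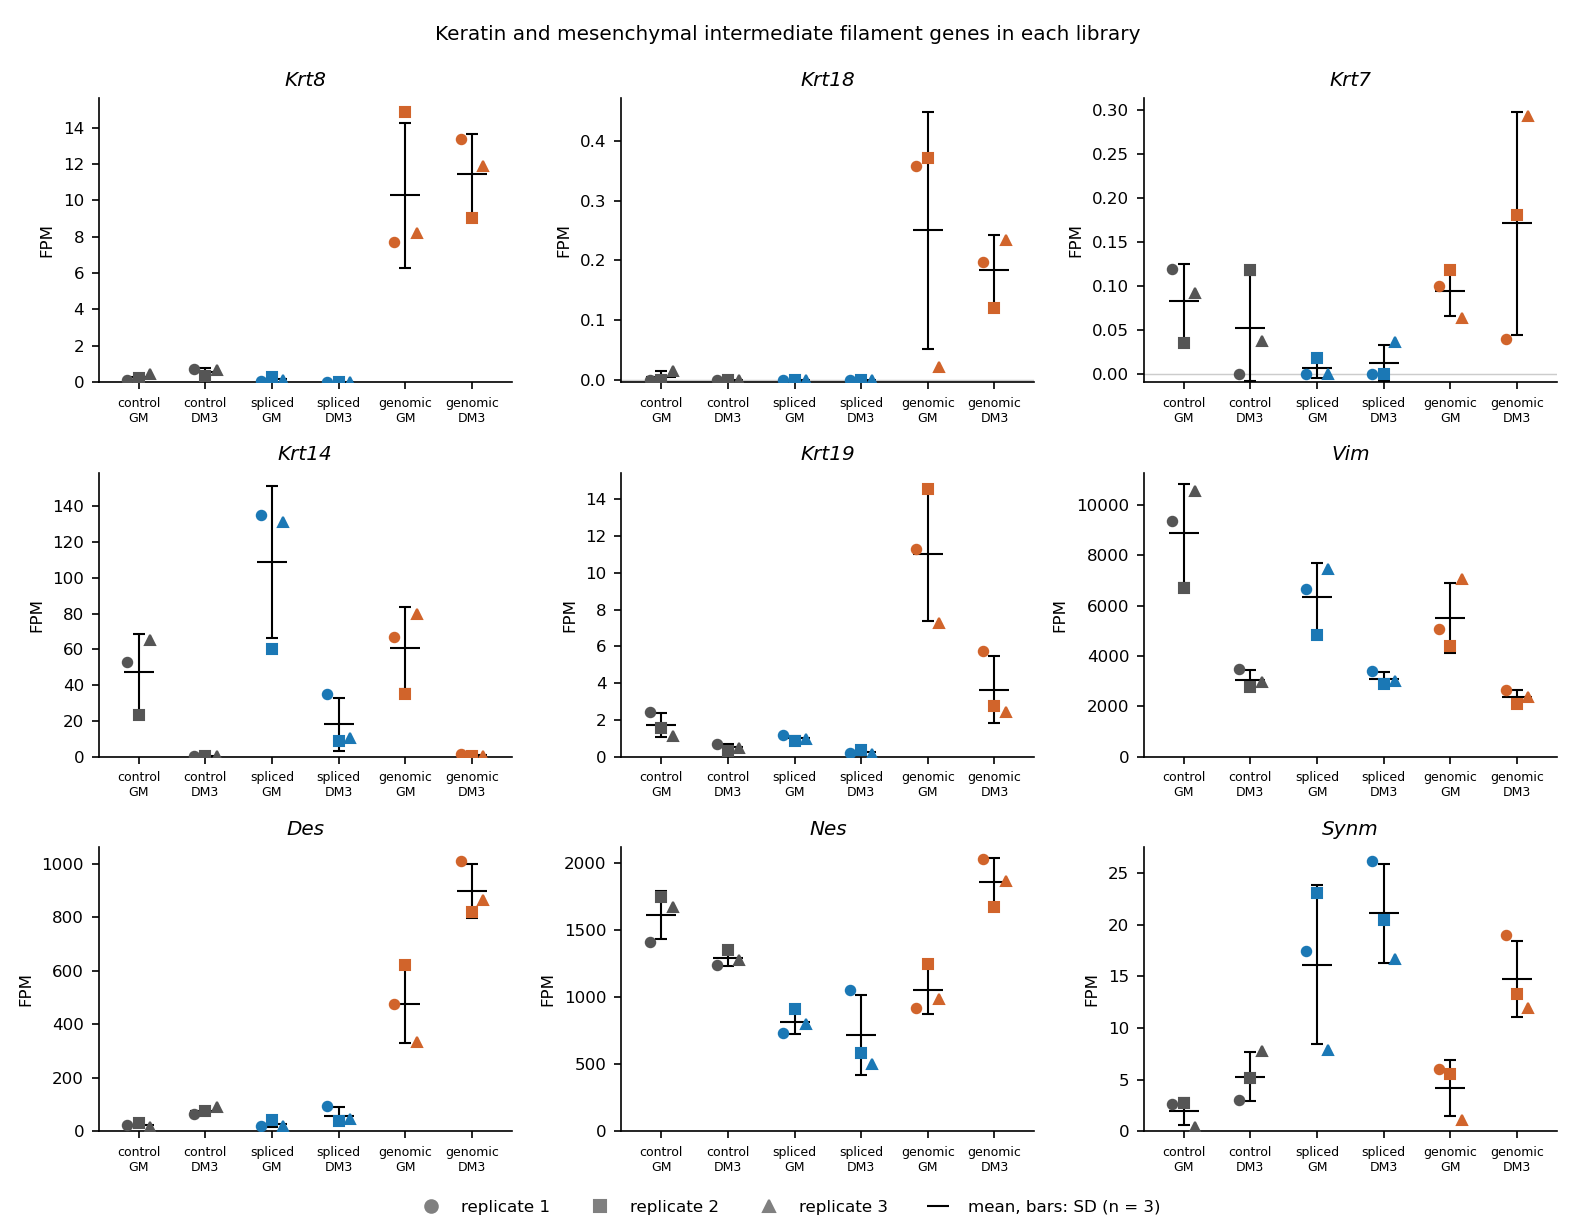
FPM of each of the 9 genes (one panel each, linear axes that differ between panels) in the 18 libraries, by group, with points for replicates and bars for mean ± SD (n = 3). Krt8, Krt19 and Des sit highest in the MUNC genomic groups, Krt14 falls from GM to DM3 in each line, and Vim spans 2095 to 10522 FPM.

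Krt8, the type II keratin of simple epithelia, was close to absent in control and MUNC spliced cells and present in every MUNC genomic library. In GM it stood at 0.137, 0.212 and 0.461 FPM in control replicates 1 to 3, at 0.0505, 0.275 and 0.126 FPM in MUNC spliced cells and at 7.73, 14.9 and 8.21 FPM in MUNC genomic cells. The DM3 values were 0.711, 0.316 and 0.663 FPM in control, 0, 0.0174 and 0.0362 FPM in MUNC spliced and 13.4, 9.02 and 11.9 FPM in MUNC genomic cells. Every MUNC genomic library was above every other library, and the GM and DM3 values of that line overlapped. On log2(FPM + 1), which understates changes near 0, Krt8 was higher in MUNC genomic than in control cells by 3.10 (SE 0.20, limma adjusted p = 3.51e-09) in GM and by 2.99 (SE 0.20, adjusted p = 4.17e-09) in DM3. The ratios of mean FPM were 38.0 and 20.3. In MUNC spliced DM3, with 3 Krt8 reads over 3 libraries against 89 in control, the change was -0.61 (SE 0.20, adjusted p = 0.0202), and the call was lost without control DM3 replicate 1 (-0.54) or replicate 3 (-0.56). From GM to DM3 Krt8 changed by 0.30, -0.17 and 0.18 in control, MUNC spliced and MUNC genomic cells, none past the threshold. These passed, respectively, with DESeq2 (1.07), with edgeR (-2.95) or DESeq2 (-3.08), and without MUNC genomic GM replicate 2 (0.46). In bulk RNA, more cells with Krt8 and more Krt8 RNA per cell cannot be told apart.

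Krt18, the usual type I partner of Krt8, was seen in the same line but far more sparsely. In MUNC genomic cells it had 25, 22 and 1 reads in GM (0.358, 0.371 and 0.0210 FPM) and 10, 8 and 12 reads in DM3 (0.198, 0.120 and 0.234 FPM). The other 12 libraries together held 1 read, in control GM replicate 3. Krt18 therefore missed the filter on low values and has no fitted change here. The ratio of depth-scaled reads, MUNC genomic over control, was 48.9 in GM (95% exact interval 8.37 to 1973, counting error only), and in DM3 Krt18 was at least 9.34-fold higher, taking 3 reads over the control group as the limit for a count of 0. In the authors' deposited table the log2 change was 5.44 (adjusted p = 0.00649) in GM and 5.72 (adjusted p = 0.00110) in DM3. Per kilobase, Krt8 averaged 5.25 FPM and Krt18 0.174 FPM in MUNC genomic GM.

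Krt7, another type II keratin of simple epithelia, had 0 to 15 reads in any library and at most 0.293 FPM, and was not tested. Its highest values were 0.181 and 0.293 FPM, in MUNC genomic DM3 replicates 2 and 3, while replicate 1 of that group (0.0396 FPM) lay within the control range. The read ratio of MUNC genomic to control was 1.16 (interval 0.543 to 2.48) in GM and 3.38 (interval 1.51 to 8.57) in DM3, where the libraries of the 2 groups overlapped. Krt5, the usual type II partner of Krt14, had at most 7 reads in any library (0.119 FPM).

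Krt19, a type I keratin without the usual tail domain, was present at a low level in every group, highest in MUNC genomic cells, and lower in DM3 than in GM in each line. Its GM values were 2.42, 1.56 and 1.14 FPM in control, 1.16, 0.880 and 0.974 FPM in MUNC spliced and 11.3, 14.6 and 7.25 FPM in MUNC genomic cells. In DM3 they were 0.711, 0.335 and 0.479 FPM, 0.190, 0.383 and 0.163 FPM, and 5.74, 2.76 and 2.46 FPM in the same order of lines. MUNC genomic libraries lay above control libraries of the same medium without overlap, by 2.13 (SE 0.25, adjusted p = 6.55e-06) in GM and 1.57 (SE 0.25, adjusted p = 9.55e-05) in DM3 on the log2 scale, ratios of 6.47 and 7.18. From GM to DM3 it fell by 1.39 (adjusted p = 0.000229) in MUNC genomic cells. The control change was -0.82 (adjusted p = 0.00946) and was lost without control GM replicate 1 (-0.64). The MUNC spliced change of -0.69 (adjusted p = 0.0403) was lost in each of the 6 fits that left out 1 library of these groups (-0.77 to -0.63) and in the fit without a filter. Against control, MUNC spliced cells were at -0.41 in GM (adjusted p = 0.216, past the threshold only with quantile normalization, -0.66, adjusted p = 0.0393) and at -0.27 in DM3 (adjusted p = 0.397). Per kilobase, the MUNC genomic means of Krt19 were 5.95 ± 1.97 FPM (GM) and 1.97 ± 0.978 FPM (DM3).

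Krt14, the type I keratin of basal epithelial cells, was the most abundant of the 5 keratins in GM in all lines and fell in DM3. Control GM held 53.0, 23.5 and 65.5 FPM and control DM3 0.499, 0.454 and 0.332 FPM, a ratio of means of 111 and a log2 change of -4.96, by which the gene had come to notice. MUNC genomic cells went from 66.8, 35.2 and 79.8 FPM to 1.56, 0.618 and 0.663 FPM, a change of -4.94 (SE 0.47, adjusted p = 1.08e-06). MUNC spliced cells went from 135, 60.2 and 131 FPM to 35.1, 8.80 and 10.7 FPM, a change of -2.69 (SE 0.47, adjusted p = 0.000434). Without MUNC spliced DM3 replicate 1 that change was -3.27. GM and DM3 values did not overlap within any line, and in GM replicate 2 was the lowest library of each line.

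In DM3 Krt14 was thus much higher in MUNC spliced cells than in the other lines. The difference from control was 3.49 (SE 0.47), a ratio of means of 42.5. The low control DM3 values in it are those by which Krt14 was chosen, so it is given without a p-value. From MUNC genomic cells the difference was 3.08 (SE 0.47, adjusted p = 5.26e-05). Without MUNC spliced DM3 replicate 1 these were 2.91 and 2.49, the latter still past the threshold. In GM the difference from control was 1.22 (SE 0.47) with overlapping groups, and it was not called. The control GM libraries also enter the fall by which Krt14 was chosen, so no p-value is given here either. With the replicate number as a block, which the data support for this comparison, it was called. The same held with equal library sums (1.33) and with quantile normalization (1.30). It also held without control GM replicate 3 (1.51) or MUNC spliced GM replicate 2 (1.59). Nothing is read from these calls. The authors' deposited table gives 1.20 for the difference. MUNC genomic cells differed from control by 0.39 in GM and 0.42 in DM3, neither called, although the DM3 libraries did not overlap. Both values rest on the same control libraries, so nothing is read from whether they were called. The DM3 value ran up to 1.17 over the alternatives, and the authors' deposited table gives 1.16 for it.

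The summed keratin RNA shows what these changes did to the balance of the 2 filament types. The sums cover 28 type I and 23 type II keratin genes, per kilobase. In control GM the type I sum was 34.2 ± 13.1 FPM per kb (SD, n = 3), 78.7% of it Krt14, and the type II sum 5.45 ± 2.72 FPM per kb, 96.4% of it Krt80. Krt14 made up 87.5% of type I keratin RNA in MUNC spliced GM and 59.8% in MUNC spliced DM3, as shares of group means. The DM3 share rests in part on replicate 1. In MUNC spliced DM3 replicates 1 to 3 Krt14 was at 20.0, 5.01 and 6.08 FPM per kb. The type I sums there were 28.5, 11.8 and 11.7 FPM per kb. The type I keratin Krt10 was at 6.27, 6.12 and 4.69 FPM per kb, above Krt14 in replicate 2. Krt8 made up 66.5% of type II keratin RNA in MUNC genomic GM and 86.9% in MUNC genomic DM3, against 2.53% in control GM and 21.6% in control DM3. The ratio of type I to type II ranged from 4.40 to 11.7 in control GM, from 29.8 to 53.8 in MUNC spliced GM and from 3.56 to 8.62 in MUNC genomic GM. In DM3 it ranged from 1.70 to 3.66 in control, from 16.8 to 26.7 in MUNC spliced and from 0.625 to 0.977 in MUNC genomic cells. The 3 lines did not overlap in DM3, and MUNC genomic DM3 was the only group with more type II than type I keratin RNA in each library. RNA sums are not protein, and the ratios were not tested.

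**Figure D2:**
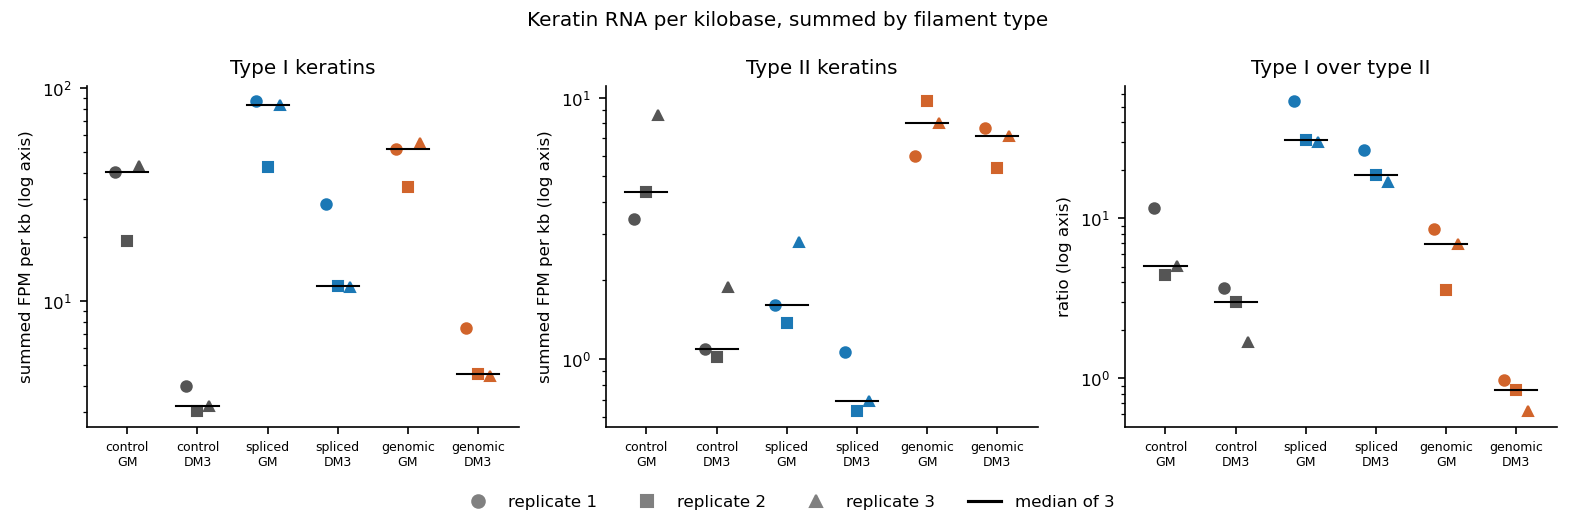
Summed FPM per kilobase of the 28 type I and 23 type II keratin genes and their ratio in each library (log axes), by group, with a line at the median of 3. The MUNC spliced libraries have the highest ratios and the MUNC genomic DM3 libraries the lowest, 0.625 to 0.977.

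Of the other 46 keratin symbols in the table, 3 passed the filter on low values: Krt10, a type I keratin of differentiating epidermis, Krt13, a type I keratin of stratified mucosa, and the type II keratin Krt80. Krt80 and Krt13 fell from GM to DM3 in each line. Krt80 went from 33.6 ± 17.0 to 6.50 ± 2.75 FPM in control (log2 change -2.16, adjusted p = 7.62e-05), and Krt13 from 8.36 ± 1.58 to 0.299 ± 0.272 FPM in MUNC genomic cells (-2.86, adjusted p = 2.96e-06). Krt10 was higher in MUNC spliced than in control cells, at 11.5 ± 0.719 against 5.96 ± 1.40 FPM in GM (0.86, adjusted p = 0.000416) and at 12.0 ± 1.85 against 4.48 ± 0.507 FPM in DM3 (1.24, adjusted p = 7.98e-06). None of these 3 was called higher in MUNC genomic than in control cells.

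Vim was the most abundant of the genes and fell from GM to DM3 in every line. The GM values were 9365, 6701 and 10522 FPM in control, 6674, 4821 and 7462 FPM in MUNC spliced and 5067, 4406 and 7068 FPM in MUNC genomic cells. In DM3 they were 3485, 2753 and 2955 FPM, 3392, 2873 and 2993 FPM, and 2640, 2095 and 2360 FPM. No DM3 library reached the lowest GM library of any line. The log2 changes were -1.51 (SE 0.23, adjusted p = 3.71e-05) in control, -1.01 (adjusted p = 0.00288) in MUNC spliced and -1.20 (adjusted p = 0.000410) in MUNC genomic cells, ratios of GM to DM3 means of 2.89, 2.05 and 2.33. In GM, the difference of MUNC genomic cells from control was -0.69 (adjusted p = 0.0346), but the groups overlapped. The call was lost without control GM replicate 1 (-0.64) or 3 (-0.55), without MUNC genomic GM replicate 1 (-0.64) or 2 (-0.54), with quantile normalization (-0.77), without the filter, and when only the compared groups were fitted. MUNC spliced GM against control was -0.49 (adjusted p = 0.109), past the threshold with the replicate block (adjusted p = 0.0271, range over alternatives 0.0271 to 0.360) and also with DESeq2 (-0.50) or without control GM replicate 2 (-0.68). In DM3 the 2 MUNC lines differed from control by 0.01 (MUNC spliced) and -0.37 (MUNC genomic, adjusted p = 0.211). The MUNC genomic DM3 libraries lay below the control DM3 libraries without overlap. The authors' deposited result for that difference was -0.36 (adjusted p = 0.0273).

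Des was an order of magnitude higher in MUNC genomic cells than in the other lines, in both media. In GM it stood at 23.9, 32.7 and 16.0 FPM in control, 19.5, 42.0 and 22.0 FPM in MUNC spliced and 475, 622 and 332 FPM in MUNC genomic cells. The DM3 values were 64.2, 76.2 and 92.0 FPM in control, 94.4, 37.3 and 44.7 FPM in MUNC spliced and 1010, 820 and 863 FPM in MUNC genomic cells. The lowest MUNC genomic library was above the highest library of any other group. The difference from control was 4.25 (SE 0.34, adjusted p = 7.07e-08) in GM and 3.53 (SE 0.34, adjusted p = 3.94e-07) in DM3, ratios of 19.7 and 11.6. MUNC spliced cells differed from control by 0.17 in GM and by -0.50 in DM3, neither past the threshold. Without MUNC spliced DM3 replicate 1, where Des was highest, the DM3 difference was -0.89 and passed (adjusted p = 0.0358, range over alternatives with every library 0.225 to 0.399).

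From GM to DM3, Des rose in control cells by 1.68 (SE 0.34, adjusted p = 0.000527), a ratio of 3.20 with no overlap. In MUNC genomic cells the change was 0.95 (adjusted p = 0.0272) with no overlap, lost without MUNC genomic GM replicate 1 (0.97) or 3 (0.72), without MUNC genomic DM3 replicate 1 (0.87) or 3 (0.98), and without the filter. In MUNC spliced cells it was 1.02 (adjusted p = 0.0290) with overlapping groups, lost without MUNC spliced GM replicate 1 (0.81) or 3 (0.89), without MUNC spliced DM3 replicate 1 (0.62), without the filter, and when only the compared groups were fitted. The changes of Des with differentiation in the MUNC lines did not pass a test of difference from the control change (-0.66, adjusted p = 0.368 for MUNC spliced and -0.73, adjusted p = 0.410 for MUNC genomic cells).

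Synm was higher than in control in MUNC spliced cells in both media, and in MUNC genomic cells in DM3. Control cells had 2.70, 2.74 and 0.446 FPM in GM and 3.03, 5.15 and 7.75 FPM in DM3. MUNC spliced cells had 17.4, 23.1 and 7.86 FPM and 26.2, 20.4 and 16.7 FPM, all above the control libraries. MUNC genomic cells had 6.04, 5.52 and 1.11 FPM and 19.0, 13.3 and 12.0 FPM. MUNC spliced exceeded control by 2.54 (SE 0.47, adjusted p = 0.000638) in GM and by 1.86 (SE 0.47, adjusted p = 0.00481) in DM3, ratios of 8.23 and 3.98, and by 1.70 in DM3 without its replicate 1. MUNC genomic cells differed from control by 0.76 (adjusted p = 0.266) in GM and 1.37 (adjusted p = 0.0303) in DM3, lost without control DM3 replicate 1 (1.08) or 2 (1.38) and without MUNC genomic DM3 replicate 1 (1.18) or 2 (1.42). That call was also lost with a pseudocount of 0.1, without the filter, and with edgeR or DESeq2. Without MUNC genomic GM replicate 3 the GM difference was 1.32 and passed.

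With differentiation, Synm rose in MUNC genomic cells by 1.75 (SE 0.47, adjusted p = 0.00565), with no overlap. The control change was 1.15 (adjusted p = 0.0480), lost without control GM replicate 3 (0.69) or control DM3 replicate 2 (1.13) or 3 (0.88), and in 5 of the 11 other alternatives. In GM replicate 3 was the lowest library of each line. In MUNC spliced cells GM and DM3 overlapped (0.46, adjusted p = 0.471).

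Nes was lower in MUNC spliced cells than in control in both media, and in MUNC genomic cells it rose with differentiation. Control libraries held 1410, 1752 and 1677 FPM in GM and 1243, 1354 and 1277 FPM in DM3. MUNC spliced libraries held 735, 916 and 800 FPM and 1059, 587 and 505 FPM, and MUNC genomic libraries 921, 1251 and 989 FPM and 2034, 1676 and 1865 FPM. MUNC spliced minus control was -0.98 (SE 0.21, adjusted p = 0.00194) in GM and -0.92 (SE 0.21, adjusted p = 0.00214) in DM3, or -1.24 in DM3 without its replicate 1, and the libraries did not overlap. Within MUNC spliced cells, DM3 minus GM was -0.26 (adjusted p = 0.355), which passed without MUNC spliced DM3 replicate 1 (-0.58, adjusted p = 0.0100, range over the other alternatives 0.285 to 0.611). MUNC genomic DM3 exceeded MUNC genomic GM by 0.83 (SE 0.21, adjusted p = 0.00382), a ratio of 1.76 with no overlap. MUNC spliced minus MUNC genomic was -1.45 in DM3 (adjusted p = 3.51e-05). Against control, MUNC genomic cells were at -0.62 (adjusted p = 0.0389) in GM and at 0.52 (adjusted p = 0.0595) in DM3. The GM call was lost without control GM replicate 2 (-0.56) or 3 (-0.59), without MUNC genomic GM replicate 1 (-0.53) or 3 (-0.58), and under 4 of 11 other alternatives. In DM3 the difference passed with equal library sums, with the compared groups alone and with DESeq2.

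**Figure D3:**
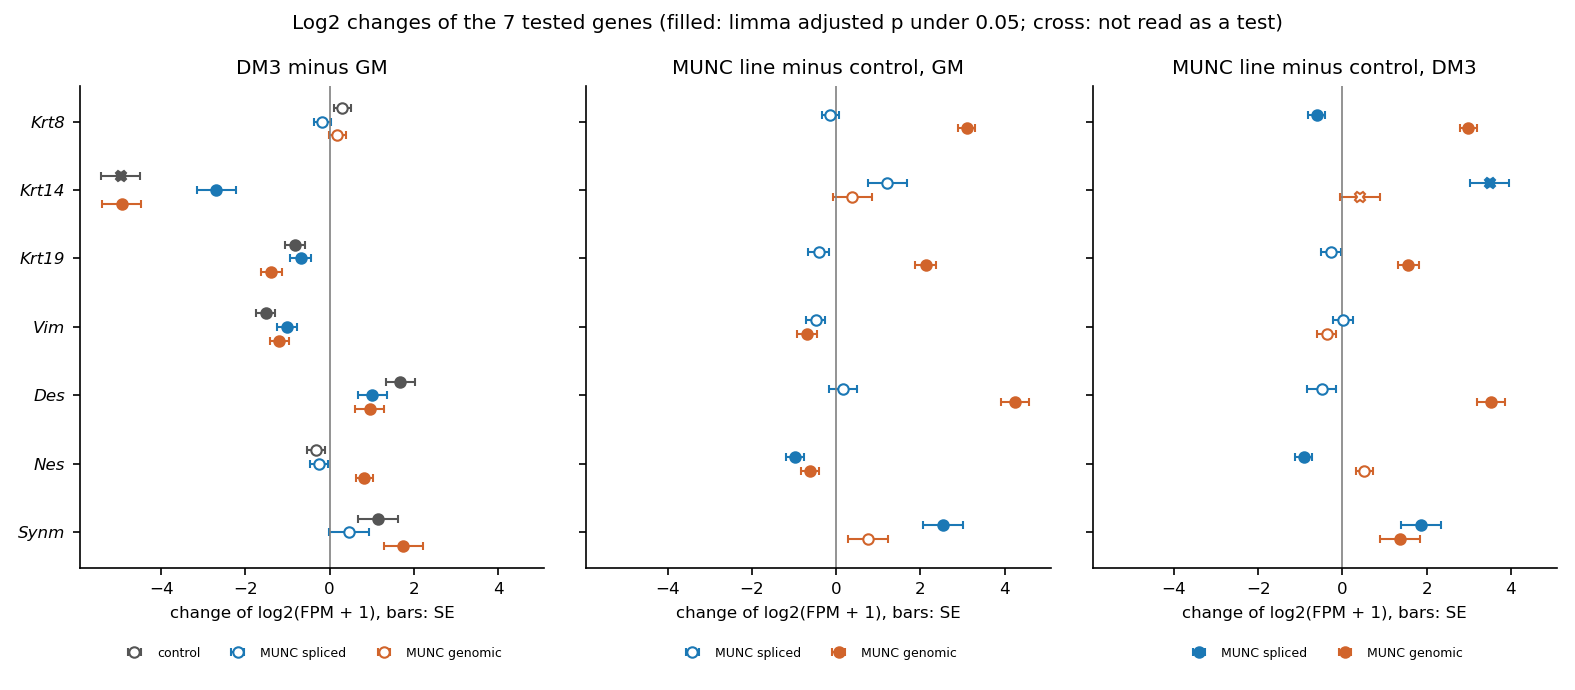
Changes of log2(FPM + 1) with SE for the 7 tested genes, DM3 minus GM in each line (left) and each MUNC line minus control in GM (middle) and DM3 (right). Filled points passed an adjusted p of 0.05, and crosses mark the Krt14 values that rest on the control DM3 libraries by which it was chosen. Krt14 values against control in GM rest on the control GM libraries, which also entered that choice. Krt8, Krt19 and Des stand apart in MUNC genomic cells, Krt14 in MUNC spliced DM3 and Synm in MUNC spliced GM.

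Counted together, 7 of the 9 genes passed the filter on low values (0.5 FPM in at least 3 libraries), and Krt7 and Krt18 did not. A gene could pass through a single line in which it was high, as Krt8 did, so the counts below describe the list and support nothing. With differentiation, 5 of 7 changed in control cells (2 higher, 3 lower, Krt14 among the latter) where 58.2% of the 13869 tested genes changed (29.6% higher, 28.6% lower). Since Krt14 was chosen there, nothing is read from that count. In MUNC spliced cells it was 4 of 7 (1 higher, 3 lower) against 35.6% (17.2% higher, 18.4% lower), and in MUNC genomic cells 6 of 7 (3 higher, 3 lower) against 51.4% (26.3% higher, 25.1% lower). Against control, MUNC spliced cells showed 2 of 7 changed in GM (Synm higher, Nes lower) with a background of 35.5% (18.2% higher, 17.3% lower), or 4 with the replicate block, where the background was 46.6%, and 4 of 7 in DM3 (Krt14 and Synm higher, Krt8 and Nes lower) with a background of 43.3% (22.3% higher, 21% lower). The Krt14 calls there, and in GM with the replicate block, rest in part on the control values that chose it. MUNC genomic cells showed 5 of 7 in GM (Krt8, Krt19 and Des higher, Vim and Nes lower) with a background of 26.8% (12.2% higher, 14.5% lower), and 4 of 7 in DM3 (Krt8, Krt19, Des and Synm, all higher) with a background of 40.3% (19.3% higher, 20.9% lower). Without MUNC spliced DM3 replicate 1, 3 of 7 changed with differentiation in MUNC spliced cells (background 37.6%), 5 of 7 differed from control in DM3 (background 38.4%) and 5 of 7 from MUNC genomic cells in DM3 (background 39.8%). Both lines were compared with the same control libraries. The median log2 change of the 7 was 0.76 in MUNC genomic GM and 1.37 in MUNC genomic DM3, against -0.03 and -0.01 over all tested genes, and -0.14 and -0.27 in MUNC spliced GM and DM3, against -0.02 and 0.01.

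Between the 2 MUNC lines, 4 of 7 genes differed in GM (Synm above, the other 3 below, in MUNC spliced) and 5 of 7 in DM3 (1 higher and 4 lower). Of all tested genes, 35.8% differed in GM (19.9% higher, 16% lower) and 44.2% in DM3 (23.4% higher, 20.8% lower). Krt8, Krt19 and Des were lower in MUNC spliced cells in both media, with differences in GM and DM3 of -4.09 and -4.02 for Des, -3.24 and -3.59 for Krt8 and -2.54 and -1.84 for Krt19 (adjusted p at most 1.56e-05). Synm was higher in MUNC spliced GM by 1.78 (adjusted p = 0.00784), and in DM3, with overlapping groups, by 0.49 (adjusted p = 0.425). Vim did not pass in either medium. Whether the change with differentiation differed from the control change was fitted as well, a comparison in which 14.4% of tested genes passed in the MUNC spliced line (7.43% upward, 6.94% downward) and 8.81% in the MUNC genomic line (3.56% upward, 5.25% downward). In MUNC genomic cells it passed for 1 of 7 genes, Nes, with a higher value. In MUNC spliced cells Krt14 alone was past the threshold, at 2.28 (SE 0.66), a value that contains the contrast by which Krt14 was chosen and from which nothing is read. Krt8, at -0.47 there, passed with a pseudocount of 0.1 (-1.88, adjusted p = 0.0357), with edgeR (-3.95, adjusted p = 0.0242) and with DESeq2 (-4.15, adjusted p = 0.00248).

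Other filament genes were read from a fixed list of 12, of which 7 were tested. In control cells, 6 of the 7 fell from GM to DM3 (28.6% of all tested genes did), among them the neurofilament subunits Nefl (265 ± 61.6 to 14.5 ± 3.48 FPM) and Nefm (161 ± 71.1 to 3.83 ± 0.824 FPM) and the nuclear lamins Lmna, Lmnb1 and Lmnb2, while syncoilin (Sync), a muscle filament protein of the desmin network, rose from 28.3 ± 6.26 to 51.4 ± 5.84 FPM (0.85, adjusted p = 0.00505). Nefl and Nefm fell to 2.45 ± 0.468 and 0.112 ± 0.0456 FPM in MUNC spliced GM. Sync did not follow Des in MUNC genomic cells: its difference from control was -0.93 (adjusted p = 0.00712) in GM and -0.62 (adjusted p = 0.0417) in DM3. In MUNC genomic GM, 4 of the 7 were lower than control and none higher, against 14.5% and 12.2% of all tested genes.

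Of 19 listed genes for proteins that anchor, chaperone or ubiquitinate filaments, 16 were tested. MUNC spliced GM had 7 above and 2 below control, against 18.2% and 17.3% of all tested genes. MUNC genomic GM had 3 above and 3 below, near the 12.2% and 14.5% of all tested genes. In DM3 MUNC spliced cells had 3 above and 4 below control, against 22.3% and 21% of all tested genes. MUNC genomic cells had 1 above and 4 below there, against 19.3% and 20.9%. Periplakin (Ppl), which ties keratins to desmosomes, stood in GM at 1.26 ± 0.538 FPM in MUNC genomic and 0.0678 ± 0.0333 FPM in control cells, and in DM3 at 1.65 ± 0.459 and 0.0255 ± 0.0112 FPM (log2 differences of 1.05, adjusted p = 5.80e-05, and 1.36, adjusted p = 1.88e-06). The desmosomal plakophilin Pkp1 was higher in MUNC genomic GM, at 60.7 ± 10.6 against 24.3 ± 6.69 FPM (1.31, adjusted p = 0.00120), but not in DM3, at 22.1 ± 1.32 against 20.0 ± 1.96 FPM (0.14, adjusted p = 0.699). In MUNC spliced cells Pkp1 was higher than control in GM (0.70, adjusted p = 0.0447, with overlapping groups) and lower in DM3 (-0.69, adjusted p = 0.0386). Dystrobrevin alpha (Dtna), a binding partner of syncoilin in the dystrophin complex, differed from control in MUNC genomic cells by -1.76 in GM and -1.87 in DM3 (adjusted p = 1.73e-06 and 4.42e-07). The small heat shock protein Hspb1 differed by -1.36 and -1.15 (adjusted p = 0.00529 and 0.0101).

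Of 29 epithelial markers 6 were tested, and 1 was called higher and 1 lower in MUNC genomic than in control cells in each medium, against 12.2% and 14.5% of all tested genes in GM and 19.3% and 20.9% in DM3. The summed level was 20.7 to 28.8 FPM in control GM, 3.39 to 9.42 FPM in MUNC spliced GM and 3.33 to 5.04 FPM in MUNC genomic GM. In DM3 the sums were 15.8 to 25.0 FPM in control, 8.81 to 13.7 FPM in MUNC spliced and 3.83 to 5.03 FPM in MUNC genomic cells. Most of the control sum was Perp, a desmosomal membrane protein, which averaged 20.7 ± 4.05 FPM (GM) and 17.8 ± 4.57 FPM (DM3) there, with 0 reads in all 6 MUNC genomic libraries and at most 3 in any MUNC spliced library. The order of the lines rests on that gene. Without it, a sum added after its level had been seen, control cells had 2.46 to 3.40 FPM in GM and 1.62 to 2.13 FPM in DM3. MUNC spliced cells then had 3.37 to 9.40 and 8.79 to 13.6 FPM, and the MUNC genomic sums, as given above, overlapped control in GM and lay above it in DM3. Of the defining genes, Ehf and Ovol2 had 0 reads in all 18 libraries, Epcam at most 2 reads and Esrp1 at most 3 reads in any, and Cdh1 at most 0.890 FPM. The gene called higher in MUNC genomic GM was the tight junction gene Ocln (1.05 ± 0.328 against 0.135 ± 0.0810 FPM). Trp63, a regulator of basal epithelial cells, was higher in MUNC spliced DM3, at 8.30 ± 2.85 against 0.287 ± 0.101 FPM in control (2.81, adjusted p = 4.96e-06). It was also higher in MUNC spliced GM (1.71, adjusted p = 0.000845) and in MUNC genomic DM3 (1.27, adjusted p = 0.00585), where Krt14 differed from control by 0.42. From GM to DM3 mean Trp63 went from 3.39 ± 2.92 to 8.30 ± 2.85 FPM in MUNC spliced cells, with overlapping groups. In MUNC genomic cells it went from 0.149 ± 0.130 to 2.10 ± 0.340 FPM, without overlap. Krt14 fell in both lines.

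Muscle markers did not follow Des in GM or in MUNC spliced cells, while in MUNC genomic DM3 more of them were above control than below. Of 16 markers, 14 were tested, and in GM the summed level was 135 to 154 FPM in control and 81.0 to 121 FPM in MUNC genomic cells, where Des was 19.7-fold higher, with 2 markers called higher and 3 lower (12.2% and 14.5% of all tested genes). In DM3 the sums were 276 to 445 FPM and 395 to 565 FPM, with 7 higher and 2 lower (19.3% and 20.9% of all tested genes) and a median log2 difference of 0.98 against -0.01 over all tested genes. MUNC spliced cells, in which Des did not pass against control, had sums of 368 to 515 FPM in GM and 673 to 1735 FPM in DM3, with 9 and 11 markers higher, against 18.2% and 22.3% of all tested genes, and none lower. Myog, the differentiation regulator, averaged 107 ± 104 FPM in MUNC spliced DM3 (range 41.0 to 226 FPM) and 9.70 ± 4.40 FPM in MUNC genomic DM3, against 0.344 ± 0.132 FPM in control DM3. The marker values of MUNC spliced DM3 include replicate 1, and the marker counts are not given without it. A list of 16 mesenchymal markers held 13 tested genes, of which 3 were higher and 2 lower in MUNC genomic GM and 3 higher and 5 lower in MUNC genomic DM3 than in control. All tested genes gave 12.2% higher and 14.5% lower in GM and 19.3% and 20.9% in DM3. Its gene with the largest MUNC difference, the transcription factor Prrx1, was higher in MUNC spliced than in control cells by 1.68 in GM and 2.21 in DM3 (adjusted p = 9.70e-07 and 2.85e-08), while in MUNC genomic cells it did not pass in either medium.

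**Figure D4:**
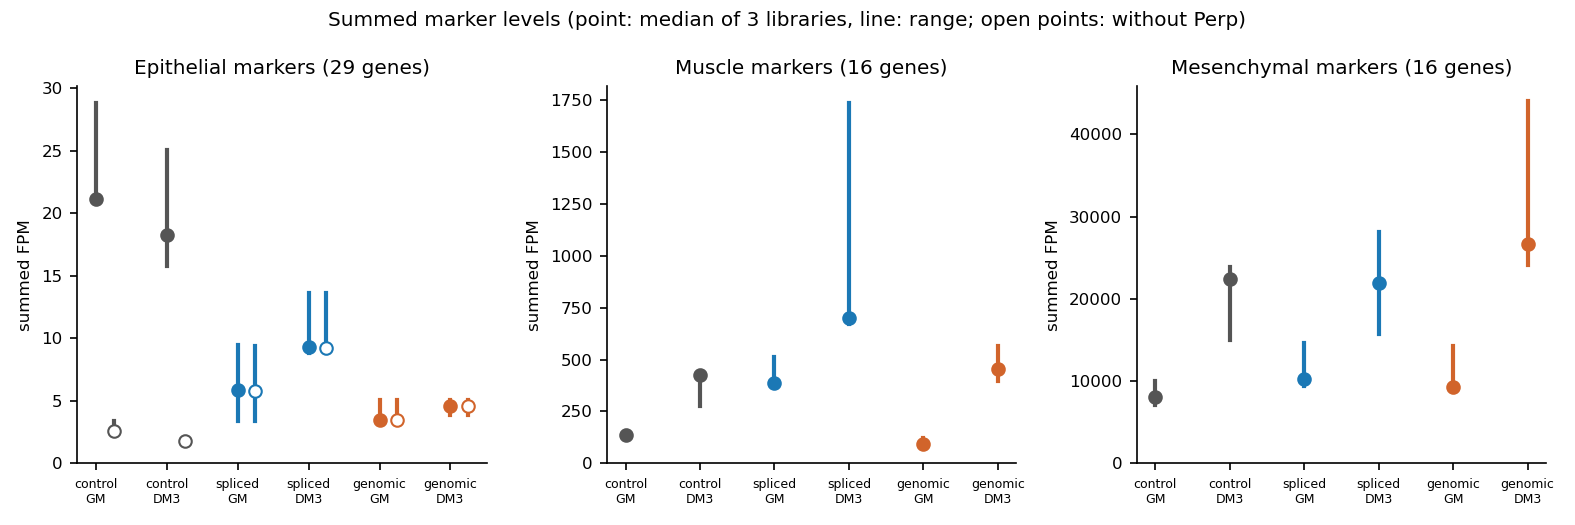
Summed FPM of the epithelial, muscle and mesenchymal marker lists in each group, with the median (point) and range (line) of 3 libraries, and open points for the epithelial sum without Perp. The control epithelial sums drop to 2.46 to 3.40 FPM (GM) and 1.62 to 2.13 FPM (DM3) without Perp, below or overlapping the MUNC lines, and the muscle sum is highest in MUNC spliced DM3, where 1 library reaches 1735 FPM.

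Markers of other lineages changed in both directions in MUNC genomic GM. Of 7 neural markers 4 were tested, with 2 higher and 2 lower than control, and of 4 endothelial markers 2 were tested, with 1 higher and none lower, against 12.2% and 14.5% of all tested genes. Stmn2, a neuronal microtubule regulator, averaged 92.3 ± 11.9 FPM in that line in GM and 1.06 ± 0.600 FPM in control GM (5.54, adjusted p = 9.92e-13). Cdh5, the endothelial cadherin, stood at 7.14 ± 0.125 against 0.199 ± 0.186 FPM (2.77, adjusted p = 2.13e-11), and Map2, a neuronal microtubule protein, at 1.37 ± 0.657 against 0.00590 ± 0.0102 FPM. Gap43, a growth cone protein, was lower, at 0.0360 ± 0.0313 against 5.59 ± 0.573 FPM, and so was the neuronal tubulin Tubb3, at 9.39 ± 6.11 against 37.4 ± 23.6 FPM (-1.86, adjusted p = 0.0101). The endothelial receptor Tek stood at 0.145 ± 0.108 against 0.139 ± 0.00255 FPM (adjusted p = 0.992). Smooth muscle markers (4 of 5 tested) summed to 1315 to 2204 FPM in control GM and 1984 to 2444 FPM in MUNC genomic GM, where none was higher and 1 lower. Mesothelial, leukocyte and adipocyte markers (1, 1 and 2 tested) showed none higher in MUNC genomic GM. The part of such cells or genes in the levels of Krt8, Krt19 and Des was not tested.

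Profiles across the 18 libraries were compared with those of all other tested genes, by the root mean square (RMS) difference of log2(FPM + 1) values centred on each gene's mean. Nearest to Krt8 were Rbm47 (0.237) and Ak4 (0.285), against a spread of Krt8 itself of 1.55. Rbm47 averaged 0.381 FPM in control GM and Ak4 was at 0 there, and in MUNC genomic GM and DM3 Rbm47 averaged 9.64 and 13.6 FPM and Ak4 6.72 and 8.53 FPM. Epn3 (0.328) was nearest to Krt19 (spread 1.12) and Unc93b1 (0.577) to Des (spread 2.01), both also highest in MUNC genomic cells. For Krt14, Rrm2 (0.864) and Mcm5 (0.907), both genes of DNA replication, came first, against its own spread of 2.46. Nearest to Vim (spread 0.70) were Aprt (0.152) and Snhg5 (0.156). For Nes (spread 0.56) they were Cdv3 (0.291) and Zfp599 (0.314), and for Synm (spread 1.22) Tgm5 (0.353) and Cebpa (0.403). The second genes for Krt19 and Des were Cotl1 (0.422) and Pmaip1 (0.685).

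On GENCODE M21, the same build (GRCm38) as the mm10 named in the submitters' processing notes, the keratins lay in their 2 known clusters: Krt14 (chr11:100203162-100207548) and Krt19 (chr11:100140810-100148665) in the type I cluster, and Krt7 (chr15:101411043-101430313), Krt8 (chr15:101996698-102004482) and Krt18 (chr15:102028180-102032027) at the type II cluster, all protein coding. Des (chr1:75360329-75368579), Vim (chr2:13573927-13582826), Nes (chr3:87971078-87980451) and Synm (chr7:67730160-67759742) were apart. The nearest tested genes were read as well, a rule added after the levels had been seen. In MUNC genomic GM, Eif4b, the nearest tested gene on the far side of Krt18, differed from control by 0.08 (adjusted p = 0.656), and Speg, 6.72 kb from Des, by 0.37 (adjusted p = 0.190). In DM3 these were 0.30 (adjusted p = 0.0416) and 0.13 (adjusted p = 0.639). Some neighbours did show a change near that of the member in some comparisons but not in others. Beside Nes, Gpatch4 was at -0.99 (adjusted p = 0.00532) in MUNC spliced GM against control, where Nes was at -0.98. Crabp2, on the other side of Nes, was at -1.19 (adjusted p = 0.000499) in MUNC spliced DM3 against control and at 0.92 (adjusted p = 0.00282) from GM to DM3 in MUNC genomic cells, where Nes was at -0.92 and 0.83. Trdmt1, beside Vim, changed by -1.30 (adjusted p = 1.44e-07) with differentiation in control cells, where Vim changed by -1.51. Elsewhere the same neighbours departed from the member. In MUNC spliced DM3 against control, Gpatch4 was at 0.76 (adjusted p = 0.0197) and Nes at -0.92. Trdmt1 was there at 1.36 (adjusted p = 3.94e-08) and Vim at 0.01. From GM to DM3, Gpatch4 was at -1.73 in MUNC genomic cells, where Nes was at 0.83. Crabp2 was at 0.80 in control cells, where Nes was at -0.32. Krt14 and Krt19, 54.5 kb apart, differed in which line was highest. In DM3 Krt14 was highest in MUNC spliced cells and Krt19 in MUNC genomic cells.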

How the data were processed

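RNA-seq libraries of polyadenylated RNA from 18 C2C12 samples were used, grouped by the sample titles. A label naming samples myoblasts or myotubes did not match the title of 9 samples and was set aside. The authors deposited 1 table of library-scaled signal (FPM) for 35275 genes. Each value was a whole multiple of 1 step per library, so whole reads were recovered for 100% of values at a tolerance of 0.05 read (largest deviation 0.0349). The submitters' processing notes name STAR, HTSeq, DESeq2 and mm10, without versions or roles. The authors' tables of comparisons hold, per the file headers, a log2 change and its SE, a p-value and an adjusted p-value, and scores (mean count and test statistic). The deposited scores were not used.

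On log2(FPM + 1), limma 3.58.1 (R 4.3.3) was run with lmFit, contrasts.fit and eBayes with trend. The filter kept 13869 genes that reached 0.5 FPM in 3 or more libraries. A single model of 6 group means took the 18 libraries together, leaving 12 residual degrees of freedom, and gave 11 comparisons. A gene was called where its p, adjusted by Benjamini-Hochberg over the tested genes, was below 0.05. Replicates are biological per the labels, and no label says that they were separate cultures, so p-values measure only the spread between these libraries. Counting intervals are 95% and, like the limit of 3 reads for a count of 0, cover counting error only. The fit was tested on simulated data.

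Members and gene lists were chosen with earlier results of these data known. Named genes came from the members and Krt5, from up to 4 called genes of each list with the largest changes, from list genes at or above the level of the lowest tested member, and from the 2 genes most like each tested member; other marker genes serve the identity checks. Alternatives were 2 pseudocounts, 2 filters, 3 scalings, the compared groups alone, a replicate block, edgeR 4.0.16, DESeq2 1.42.0 and leaving out each library. Same-numbered libraries deviated together (correlation over 0.1 for each number) in 6 of 9 comparisons (not within either MUNC line, nor between the MUNC lines in DM3), a pairing read from the data since no label gives one.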

Additional observations from a re-analysis of the deposited data

Results flagged for a closer look

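The change of Krt14 with differentiation differed between MUNC spliced and control cells by 2.28 (SE 0.66) on the log2 scale. The control change, by which Krt14 had come to notice, is part of this value, so no p-value is given for it. The fall was smaller in MUNC spliced cells, -2.69 against -4.96. Over the 12 fits with 1 library removed, the difference of 2.28 ran from 1.69 to 2.71, and no threshold is applied to it. The lowest value was without MUNC spliced DM3 replicate 1 (1.69). That library also had the highest muscle marker sum, and the part of this in the result was not tested.

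The change of Nes with differentiation differed between MUNC genomic and control cells by 1.14 (SE 0.30, limma adjusted p = 0.0239). Nes rose in all 3 MUNC genomic DM3 libraries above all GM libraries of that line, while in control cells the DM3 libraries lay below the GM libraries (-0.32, adjusted p = 0.213). The call was lost in 5 of 12 fits: without control GM replicate 3 (1.11), MUNC genomic GM replicate 1 (1.05), control DM3 replicate 3 (1.13), or MUNC genomic DM3 replicate 1 (1.07) or 3 (1.14).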

How the results depend on the processing

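Across the alternatives that kept every library, the MUNC genomic rises of Krt8, Krt19 and Des over control, the falls with differentiation of Vim in each line and of Krt14 in both MUNC lines, and the MUNC spliced differences of Nes and Synm kept their direction and their side of the threshold, and they did so in the fits that left out 1 library. The number of the 7 genes called changed in the cases below, among others. For DM3 against GM it was 4 to 5 in control and 5 to 7 in MUNC genomic cells with 1 library left out. Against control it was then 2 to 3 in MUNC spliced GM, 3 to 5 in MUNC spliced DM3 and 3 to 4 in MUNC genomic DM3. MUNC spliced DM3 against GM had 2 without the filter and 2 to 3 with 1 library left out (2 without MUNC spliced GM replicate 1 or 3). MUNC spliced against control in GM had 4 with quantile normalization and 4 with the replicate block, which changed no other call. MUNC genomic against control in GM had 3 with quantile normalization, 3 with the compared groups only and 3 to 5 with 1 library left out (3 without control GM replicate 3 or MUNC genomic GM replicate 1). The difference in response to differentiation had, for MUNC spliced, 2 (Krt8 and Krt14) with a pseudocount of 0.1, 2 with edgeR, 2 with DESeq2, 0 without the filter and 0 with the compared groups only; for MUNC genomic it had 0 without the filter and 0 with quantile normalization; each had 0 to 1 with 1 library left out. Signs turned only where values were not called: in the response of Krt14 in MUNC genomic cells with equal sums (-0.031), of Krt8 there with quantile normalization (0.011), of Krt19 in MUNC spliced cells with a pseudocount of 0.1 (-0.17), edgeR (-0.21) or DESeq2 (-0.26) and in MUNC genomic cells with edgeR (0.16) or DESeq2 (0.14), and of Nes in MUNC spliced cells with equal sums (-0.011) or quantile normalization (-0.12). With 1 library left out, ranges crossed 0 for Krt14 in MUNC genomic GM against control (-0.039 to 0.73), Des in MUNC spliced GM (-0.16 to 0.41) and Vim in MUNC spliced DM3 (-0.060 to 0.11) against control, and for the responses of Krt14 (-0.32 to 0.46) and Krt8 (-0.27 to 0.16) in MUNC genomic and Krt19 (-0.049 to 0.29) and Nes (-0.26 to 0.27) in MUNC spliced cells. The causes were not tested. No scaling moved the median change of all genes by over 0.1. At this depth 1 read was worth at most 0.0252 FPM, so Krt18 outside MUNC genomic cells lies near the detection limit. Krt18 in MUNC genomic GM replicate 3, with 1 read, does too. Krt7 lies near that limit in all lines, with 0 to 15 reads in any library.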
